A study of Mus musculus with 2 samples.

Results

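Serine synthesis and the folate-bound one-carbon pathway are described here through 10 enzymes in cultured mouse endoderm, chosen by name out of 26127 genes in the deposited expression table. They are the serine synthesis enzymes Phgdh, Psat1 and Psph, the mitochondrial folate enzymes Shmt2, Mthfd2, Mthfd2l, Mthfd1l and Aldh1l2, and the cytosolic folate enzymes Shmt1 and Mthfd1. They were picked with the difference between both libraries in view, and the contrast of mitochondrial with cytosolic enzymes was set in the same way, so their values are a description. The cells are PS10, a female extraembryonic endoderm stem (XEN) cell line of ICR strain that stands for the primitive endoderm of the blastocyst. Both groups were transfected with a locked nucleic acid (LNA) oligonucleotide by the lipid reagent Lipofectamine RNAiMax. One group received a control LNA, and the other, called the depleted library below, an LNA against Gata6-AS, the antisense RNA beside the endoderm factor gene Gata6. The sample titles name them siRNA; the term of the treatment protocol, LNA, is used here. There was 1 library per group, so no difference has a replicate check, and each compares these libraries rather than the conditions. Bulk RNA does not tell fewer expressing cells from less RNA per cell.

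As background, Phgdh draws 3-phosphoglycerate out of glycolysis, Psat1 moves an amino group from glutamate onto the product, and Psph removes the phosphate to give serine. Serine hydroxymethyltransferases pass a carbon of serine to tetrahydrofolate and leave glycine. In the mitochondrion Shmt2 loads the carbon, Mthfd2 or Mthfd2l oxidizes it, and Mthfd1l releases it as formate, while Aldh1l2 burns it to carbon dioxide with formation of NADPH. Formate is taken up in the cytosol by the trifunctional enzyme Mthfd1, which readies the carbon for purine, thymidylate and methionine synthesis, and Shmt1 is the cytosolic partner of Shmt2. Many genes of the serine branch and of the mitochondrial branch are known targets of the stress transcription factor ATF4.

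Of the 4 enzymes around which the contrast turns, the promoters are shown first, since those of Shmt2 and Mthfd2 stand before genes with lower values and those of Shmt1 and Mthfd1 before genes with higher values in the depleted library. Each is the stretch of 250 bases before the transcript start from RefSeq on GRCm38.p6, written in the direction of transcription, with matches to the GC box GGGCGG and to CCAAT on either strand in capitals. Those for Shmt2 (chr10:127522445-127522694, minus strand), Mthfd2 (chr6:83317605-83317854, minus strand), Shmt1 (chr11:60811266-60811515, minus strand) and Mthfd1 (chr12:76254982-76255231, plus strand) read as follows.
Shmt2: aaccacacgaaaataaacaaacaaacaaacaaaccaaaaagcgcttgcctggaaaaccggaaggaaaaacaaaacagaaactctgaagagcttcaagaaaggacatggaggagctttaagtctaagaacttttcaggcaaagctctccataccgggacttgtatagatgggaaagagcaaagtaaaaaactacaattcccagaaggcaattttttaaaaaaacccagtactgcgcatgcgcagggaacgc
Mthfd2: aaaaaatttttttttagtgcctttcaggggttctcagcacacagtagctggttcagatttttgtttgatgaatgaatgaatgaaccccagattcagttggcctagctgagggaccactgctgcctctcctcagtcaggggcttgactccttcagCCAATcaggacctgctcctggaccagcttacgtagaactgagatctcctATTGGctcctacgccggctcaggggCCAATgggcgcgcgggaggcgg
Shmt1: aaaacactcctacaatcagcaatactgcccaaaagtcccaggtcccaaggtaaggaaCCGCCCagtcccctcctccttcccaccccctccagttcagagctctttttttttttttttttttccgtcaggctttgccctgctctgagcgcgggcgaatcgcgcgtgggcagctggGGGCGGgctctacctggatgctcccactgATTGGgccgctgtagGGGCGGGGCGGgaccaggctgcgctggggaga
Mthfd1: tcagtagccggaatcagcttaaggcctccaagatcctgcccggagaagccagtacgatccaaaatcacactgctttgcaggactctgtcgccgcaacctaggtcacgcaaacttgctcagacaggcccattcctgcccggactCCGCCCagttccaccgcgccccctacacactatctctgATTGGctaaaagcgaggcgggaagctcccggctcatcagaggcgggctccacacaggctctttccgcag
The Shmt2 window held neither motif. Mthfd2 held CCAAT at 3 places and no GC box, Shmt1 held the GC box at 4 places (of which 2 overlap) and CCAAT once, and Mthfd1 held each motif once. Of the 9 enzymes with an entry, 5 held the GC box and 6 held CCAAT. The GC box was also in windows of Psat1, Psph and Mthfd1l, which had lower values in the depleted library, so it does not follow the direction. GGGCGG occurred in 32.7% and CCAAT in 33.8% of all 32851 windows of this length. The C/EBP-ATF element TGATGNAA, in 3.45% of all windows, and the E-box CACGTG, in 6.02%, had no match in the windows of the 9 enzymes with an entry. Among these, Mthfd1l is on the plus strand in GRCm38.p6 but on the minus strand in the deposited mm9 coordinates, and its window follows GRCm38.p6. These are matches of letters and not binding sites, and a missing match speaks only for this window.

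Reads per kilobase and per 1000000 reads (RPKM) are scaled for gene length and depth, so that levels of different genes can be set side by side. How reads were counted and which annotation was used are not described. Comparisons between genes may therefore carry an error that intervals for counting error do not cover. From steps in the RPKM values a depth of 1.04e+08 reads followed for the control and of 1.23e+08 for the depleted library. The targeted RNA, listed as 1010001N08Rik, was at 10.1 RPKM with the control LNA against 5.83 RPKM with the Gata6-AS LNA, or 57.8% of control, and Gata6 at 68.0%. These genes overlap on opposite strands and counting by strand is not stated, so this checks the label only in part. Of the XEN markers, 10 of 10 were expressed, with summed levels of 5117 RPKM with the control LNA against 3812 RPKM with the Gata6-AS LNA. Most of the sum is from Sparc, Lama1 and Lamc1 (2104, 1125 and 1094 RPKM in the control). Of the 10 markers 8 were lower in the depleted library, Sox7 the most, at 40.9% of control. The other 2 were Foxa2, at 102% of control, and Dab2, at 140%. Among the 10869 expressed genes compared further below, 42.0% had lower values in the depleted library. Markers of fibroblast feeder cells stayed at or below 0.0136 RPKM, with Col3a1, Thy1 and Twist2 listed at 0 in both. Trophoblast markers summed to 1.09 RPKM with the control LNA against 1.78 RPKM with the Gata6-AS LNA, with Hand1 listed at 0 in both. Of 6 embryonic stem cell markers, Nanog was at 4.61 and 5.07 RPKM and the rest were below 0.1 RPKM, with Sox2 and Esrrb listed at 0. The part of these markers in the results below was not tested.

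Of the mitochondrial folate enzymes 4 of 5, all but Mthfd2l, were lower in the depleted library by more than counting error. Both cytosolic folate enzymes were higher by more than counting error. For comparison, 42.0% of the 10869 expressed genes compared further below were lower by any amount and 58.0% higher. The share of them that passed counting error is not given here, so nothing is read from the counts of enzymes. The 5 mitochondrial genes summed to 174 RPKM with the control LNA against 77.0 RPKM with the Gata6-AS LNA, which is 44.4% of control. The 2 cytosolic genes summed to 20.02 RPKM with the control LNA against 41.4 RPKM with the Gata6-AS LNA, or 207% of control. The mitochondrial genes thus made up 89.7% of the summed folate enzyme level with the control LNA but 65.0% with the Gata6-AS LNA. Most of the mitochondrial sum came from Mthfd2 (49.3%) and Shmt2 (40.7%) in the control, and each gave about as much as the other in the depleted library (41.9% and 42.6%).

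**Figure D1:**
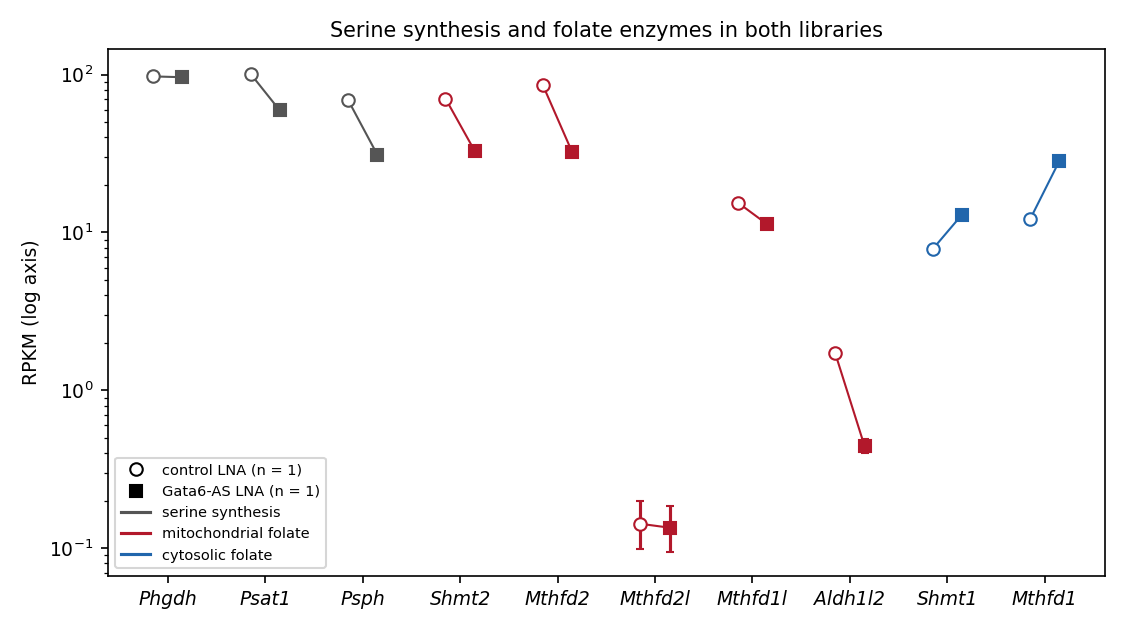
RPKM of the 10 enzymes on a log axis, with open circles for the control LNA library and filled squares for the Gata6-AS LNA library (1 library each); bars are exact 95% Poisson intervals, hidden by the symbol where narrow. The red mitochondrial genes slope down or stay level (Mthfd2l), and both blue cytosolic genes slope up, from 7.85 to 12.98 RPKM for Shmt1 and from 12.2 to 28.5 RPKM for Mthfd1.

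Among the mitochondrial enzymes, the dehydrogenase and cyclohydrolase Mthfd2 (chromosome 6, minus strand, 83255685 to 83267600 in mm9) was at 85.7 RPKM with the control LNA against 32.3 RPKM with the Gata6-AS LNA. It kept 37.7% of the control level (exact Clopper-Pearson 95% limits 36.9% and 38.6%), on no fewer than 24151 and 10813 reads. Such intervals cover counting error only, not the variation between cultures, and the numbers of reads are the least that fit the values. Shmt2 (chromosome 10, minus strand, 126954195 to 126959491) was at 70.6 RPKM with the control LNA against 32.9 RPKM with the Gata6-AS LNA, or 46.5% of control (45.3% to 47.7%). The formate-releasing synthetase Mthfd1l (chromosome 10, 6179460 to 6373423, minus strand in the deposited mm9 coordinates) was closer to control, at 15.5 and 11.3 RPKM, or 73.0% of control (70.5% to 75.5%). The intervals of Mthfd2, Shmt2 and Mthfd1l do not overlap each other, so their levels relative to control differed by more than counting error.

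Aldh1l2, which oxidizes 10-formyltetrahydrofolate (chromosome 10, minus strand, 82950195 to 82996885), was the least retained of the 10 enzymes. It stood at 1.71 RPKM in the control (exact 95% Poisson interval 1.62 to 1.81) and 0.443 RPKM in the depleted library (0.401 to 0.489). The level was 25.9% of control (23.1% to 29.0%), on no fewer than 1330 and 409 reads. Its mean over both libraries is just above 1 RPKM, so it entered the comparison of expressed genes through the control library alone. Mthfd2l, the second mitochondrial dehydrogenase (chromosome 5, plus strand, 91360222 to 91450386), was nearly silent at 0.143 and 0.135 RPKM. With at least 33 and 37 reads its ratio was 94.4% of control with an interval of 57.5% to 156%, so a difference of the size seen for Mthfd1l was not detectable at this depth. Mthfd2 was thus by far the more abundant of both mitochondrial dehydrogenase transcripts in both libraries.

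The cytosolic enzymes lay on the other side. Mthfd1 (chromosome 12, plus strand, 77356219 to 77420807), whose product joins formate to tetrahydrofolate, was at 12.2 RPKM with the control LNA against 28.5 RPKM with the Gata6-AS LNA. The level was 234% of control (226% to 242%), on no fewer than 4189 and 11635 reads. Shmt1 (chromosome 11, minus strand, 60601606 to 60625220) was at 7.85 and 12.98 RPKM, or 165% of control (158% to 173%). Its annotation overlaps Smcr8 on the opposite strand by 184 bp. Smcr8 was at 6.55 RPKM with the control LNA against 5.78 RPKM with the Gata6-AS LNA. Reads in the shared stretch cannot be told apart, and their part in the value of Shmt1 was not tested. Shmt2 shares 14 bp with Ndufa4l2, which stayed at or below 0.144 RPKM.

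Set against each other, the isozymes stood in other proportions in the depleted library in all 4 pairs formed. Shmt2 stood at 8.995 times the RPKM of Shmt1 in the control (8.66 to 9.35) and at 2.53 times in the depleted library (2.45 to 2.61). Mthfd2 stood at 7.04 times Mthfd1 in the control (6.81 to 7.28) and 1.13 times in the depleted library (1.11 to 1.17), close to equal levels. Mthfd1l, which shares the synthetase activity of Mthfd1, was at 1.27 times its level in the control (1.22 to 1.32) and at 0.397 times in the depleted library (0.384 to 0.409). By RPKM, and with intervals for counting error only, the mitochondrial gene was the higher of this pair in the control and the lower in the depleted library. The ratio of Aldh1l2 to its cytosolic counterpart Aldh1l1, which was itself at 0.531 and 0.708 RPKM, was 3.22 (2.81 to 3.71) with the control LNA and 0.626 (0.544 to 0.721) with the Gata6-AS LNA. The mean of Aldh1l1 was 0.62 RPKM, below the mean of 1 RPKM that both genes of the other 3 pairs reached. Mthfd1 enters 2 of these 4 pairs, which are therefore not separate observations.

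**Figure D2:**
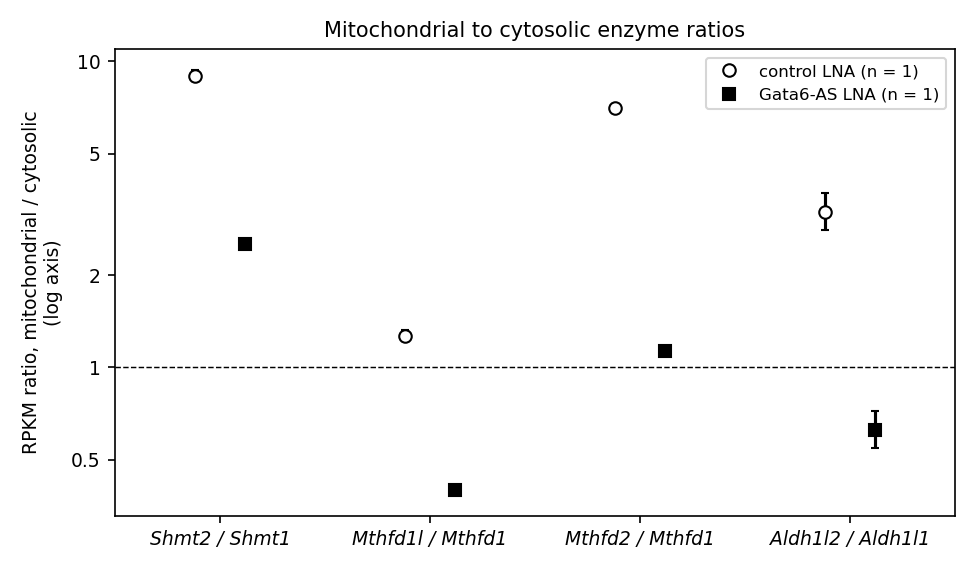
Ratio of the RPKM of a mitochondrial to a cytosolic folate enzyme in each library on a log axis, with exact 95% intervals for counting error; the dashed line marks equal levels. All 4 ratios are lower in the depleted library, and Mthfd1l to Mthfd1 (1.27 and 0.397) and Aldh1l2 to Aldh1l1 (3.22 and 0.626) cross the line.

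The 3 serine synthesis enzymes differed in their level relative to control. Phgdh, the entry enzyme (chromosome 3, minus strand, 98117093 to 98143913), was at 97.5 RPKM with the control LNA against 96.4 RPKM with the Gata6-AS LNA, or 98.8% of control (97.2% to 100.5%). Psat1 (chromosome 19, minus strand, 15979168 to 16021827) was at 101 and 59.3 RPKM, or 58.6% of control (57.7% to 59.4%). Psph, the last enzyme (chromosome 5, minus strand, 130271434 to 130293129), was at 69.2 and 31.2 RPKM, or 45.1% of control (43.5% to 46.7%). For these 3 genes the level relative to control was lower the later the step. Their intervals, which cover counting error only, do not overlap, and a link of the level to the step was not tested. Summed over the branch, the level was 268 RPKM with the control LNA against 187 RPKM with the Gata6-AS LNA.

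By level, the enzymes fell into separate ranges. In the control Psat1, Phgdh, Mthfd2, Shmt2 and Psph lay between 69.2 and 101 RPKM, and of neighbours in this order only Shmt2 and Psph had overlapping Poisson intervals (69.6 to 71.7 and 67.8 to 70.7 RPKM). Mthfd1l, Mthfd1 and Shmt1 followed between 7.85 and 15.5 RPKM. In the depleted library Phgdh was alone near the top, with Psat1 next at 59.3 RPKM, and Shmt2, Mthfd2, Psph and Mthfd1 lay between 28.5 and 32.9 RPKM. There Shmt2 and Mthfd2 overlapped (32.2 to 33.5 and 31.7 to 32.9 RPKM), as did Mthfd2 and Psph (30.3 to 32.1 RPKM). Among the levels of expressed genes Mthfd1 was at percentile 65.7 in the control and 85.0 with the Gata6-AS LNA, and Mthfd2 at percentile 95.9 and 87.0.

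On the scale of log2(RPKM + 1), which understates differences of low genes, 10869 genes had a mean of at least 1 RPKM and were compared. Of these, 0.331% were higher by 2-fold or more with the Gata6-AS LNA and 0.451% lower by as much, and their median log2 difference was 0.05. Among the 10 enzymes 9 passed this filter, of which 1 was past 2-fold upward, Mthfd1 (log2 difference 1.16), and 3 were past it downward. The latter were Mthfd2 (-1.38), Psph (-1.13) and Shmt2 (-1.08). Just inside the limit lay Shmt2, and just outside it Aldh1l2 (-0.91), followed by Psat1 (-0.76) and Shmt1 (0.66). Mthfd1l was at -0.42, Phgdh at -0.02 and Mthfd2l, below the filter, at -0.01. With a pseudocount of 0.1 RPKM in place of 1 RPKM, the log2 difference of Aldh1l2 was -1.74 and 4 enzymes were at least 2-fold lower. At 1.5-fold, where 3.42% of genes were higher and 1.95% lower, 2 enzymes were higher and 5 lower. The choice of members used this contrast, and nothing is read from these counts.

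**Figure D3:**
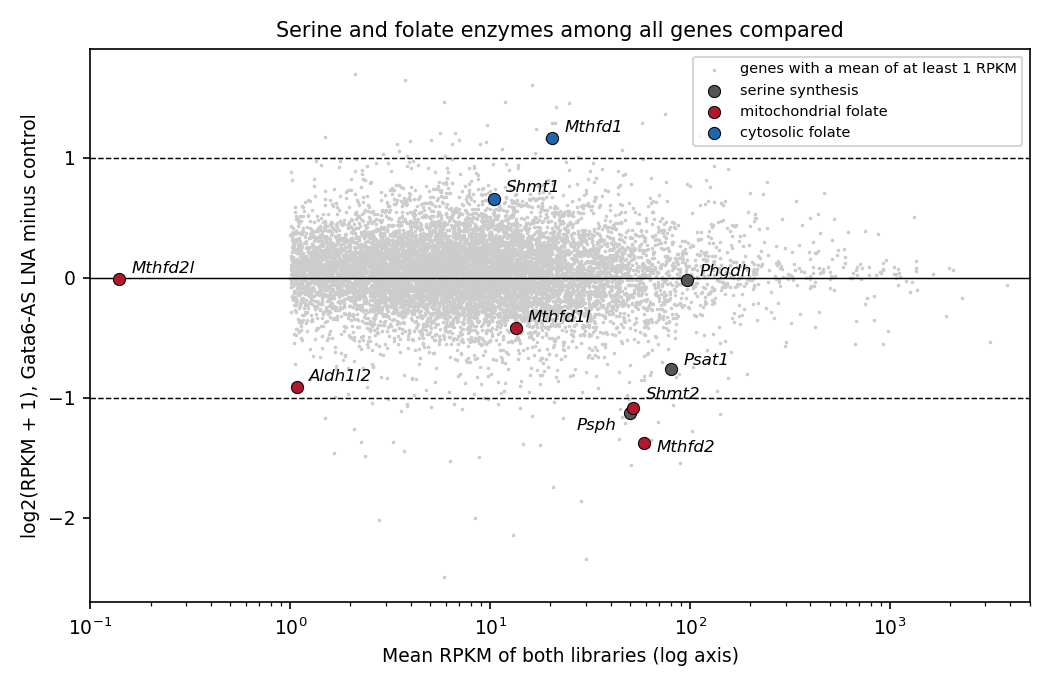
Difference of log2(RPKM + 1), Gata6-AS LNA minus control, against mean RPKM on a log axis for the 10869 genes compared (grey) and the 10 enzymes (coloured by branch), with dashed lines at 2-fold. Mthfd2, Psph and Shmt2 lie below the lower line and Mthfd1 above the upper line, while Phgdh lies at -0.02.

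The median log2 difference was -0.76 over the 3 serine synthesis enzymes, -0.995 over the 4 mitochondrial enzymes that passed the filter and 0.91 over the 2 cytosolic enzymes. With Mthfd2l counted too, the mitochondrial median was -0.91. In the authors' deposited table, which lists genes up to a p of 0.07499, 8 of the 10 enzymes are listed, all but Phgdh and Mthfd2l. Of the genes compared, 6.23% are listed there as higher and 5.71% as lower. The authors' deposited table gives log2 differences of -2.06 for Aldh1l2 (p = 3.73e-08), -1.38 for Mthfd2 (p = 1.82e-05), 1.21 for Mthfd1 (p = 1.44e-05), -1.15 for Psph (p = 2.71e-04) and -1.08 for Shmt2 (p = 3.94e-04). The same deposited table of the authors lists Shmt1 at 0.68 (p = 0.0153), Psat1 at -0.72 (p = 0.0261) and Mthfd1l at -0.48 (p = 0.0693). Those p-values come from 1 library per group and rest on a test that the sources used here do not describe, so they carry no information on the spread between cultures.

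Enzymes that feed or use the pathway mostly differed less. Of 7 genes of folate uptake and retention 6 were compared, with a median log2 difference of 0.05. None was 1.5-fold different, which is near the background, since 3.42% of all genes compared were higher and 1.95% lower at that size. Folr1, a folate receptor, was at 10.6 and 10.7 RPKM, and the mitochondrial folate carrier Slc25a32 at 2.12 and 2.30 RPKM. Of 10 other folate cycle genes 7 were compared, with a median of 0.13 and 1 at least 2-fold higher (0.331% over all genes compared). This was Gart, a purine synthesis enzyme that takes its formyl group from cytosolic 10-formyltetrahydrofolate, at 18.0 RPKM with the control LNA against 37.1 RPKM with the Gata6-AS LNA (206% of control, 201% to 212%; log2 difference 1.01). Thymidylate synthase, Tyms, was at 9.54 and 8.19 RPKM (-0.20).

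Glycine cleavage and glycine use genes had a median of 0.26 over 6 of 8 genes, and Gcat, an enzyme of threonine breakdown to glycine, was past 1.5-fold, at 1.28 and 2.77 RPKM (0.73). Over all genes compared 3.42% were past 1.5-fold upward and 1.95% downward. In the methionine cycle and transsulfuration the median was 0.24 over 9 of 13 genes, with 1 higher and 1 lower at 1.5-fold. These are the transsulfuration enzymes that act in sequence: cystathionine beta-synthase, Cbs, which consumes serine, was at 0.716 and 1.65 RPKM (0.63), and cystathionine gamma-lyase, Cth, at 3.14 and 1.47 RPKM (-0.75). Cbs was below 1 RPKM in the control and passed the filter only through the depleted library. Of serine transport and use genes 13 of 17 were compared, with a median of -0.07 and 9 below 0, beside 42.0% below 0 over all genes compared. The neutral amino acid and serine transporter Slc1a4 was at 32.2 RPKM with the control LNA against 8.92 RPKM with the Gata6-AS LNA, or 27.7% of control (26.3% to 29.0%; -1.75). Sfxn1, a mitochondrial serine transporter, was at 41.9 and 39.9 RPKM (-0.07), while its relative Sfxn2 was at 2.47 and 5.53 RPKM (0.91).

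ATF4 targets outside the pathway had a median log2 difference of -0.78 over 16 of 17 genes, with 7 past 2-fold downward (0.451% over all genes compared), none past it upward and 14 below 0 (42.0% over all genes compared). The lowest were the stress protein gene Nupr1 (10.7 and 1.07 RPKM, -2.49), the amino acid transporter Slc7a5 (133 and 44.7 RPKM, -1.55), the transcription factor Atf5 (9.78 and 2.74 RPKM, -1.53) and the pseudokinase Trib3 (26.0 and 9.28 RPKM, -1.39). The 2 above 0 were Ddit3 (18.4 and 26.0 RPKM, 0.48) and Slc7a11 (5.26 and 7.49 RPKM, 0.44). Atf4 itself was at 138 RPKM with the control LNA against 136 RPKM with the Gata6-AS LNA, or 98.5% of control (95.2% to 102%); as background, its protein is controlled largely at translation, which was not measured. The 7 regulators had a median of 0.22, with 1 past 1.5-fold upward (3.42% over all genes compared), Mycn (24.8 and 37.9 RPKM, 0.59). Myc was at 5.95 and 7.86 RPKM (0.35). The lists were chosen with earlier results of these libraries known, so their medians are no independent evidence of a direction.

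**Figure D4:**
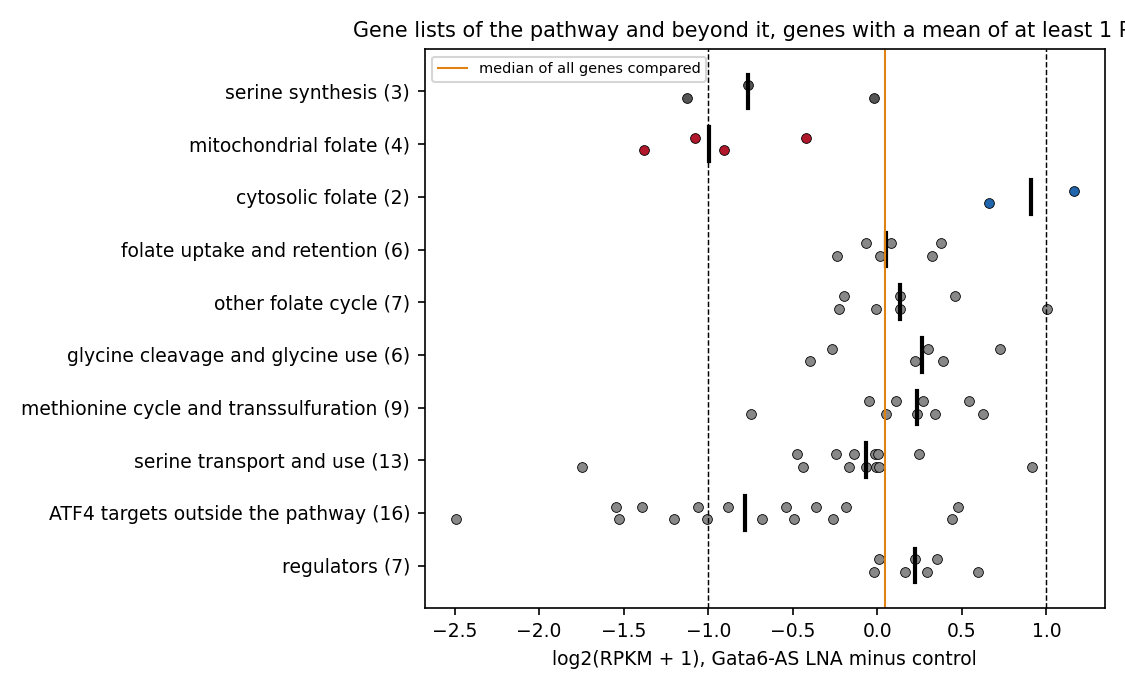
Difference of log2(RPKM + 1), Gata6-AS LNA minus control, for each gene with a mean of at least 1 RPKM (points), by list with the number of genes in brackets; black bars are list medians, dashed lines mark 2-fold and the orange line is the median of all genes compared (0.05). Mitochondrial folate enzymes (-0.995) and ATF4 targets (-0.78) have medians far left of that line and the cytosolic pair (0.91) far right of it.

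The nearest expressed genes on either side of the 10 enzymes were 20 genes with log2 differences from -0.55 to 0.65 and a median of 0.04. None was 2-fold different, which is near the background, since 0.331% of all genes compared were past 2-fold upward and 0.451% downward. The largest positive one belonged to Akap5, 5070 bp from Mthfd1, at 3.98 and 6.80 RPKM, and the most negative one to Gbas, 7230 bp from Psph, at 43.4 and 29.4 RPKM. Cct6a, whose annotation starts 185 bp from that of Psph, was at 96.0 and 103 RPKM (0.09). Next to Shmt2, R3hdm2 was at -0.17 and Lrp1 at 0.04, and next to Shmt1, Top3a was at -0.09 and Dhrs7b at -0.18.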

How the data were processed

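RNA of 2 libraries, 1 per group, was analysed. The authors deposited RPKM for 26127 genes, per the file headers; mm9 and TopHat are named in the submitters' processing notes, while the counter, annotation, strand use and handling of reads with several matches have no description in the sources used. Their second table lists 2099 genes with log2 values by library, a log2 difference and a p-value of the authors; it was joined by position.

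Differences are log2(RPKM + 1), depleted minus control, for genes whose mean reached 1 RPKM, called at 2-fold. No test was made. RPKM times length of genes spanning under 3000 bp was a whole number of steps for 828 genes (control) and 886 genes (depleted) (within 0.0002 reads plus 3e-07 of the value), which gave the depths. The smallest whole numbers of reads fitting both RPKM values at 1 transcript length of up to 30000 bp gave exact 95% intervals (scipy 1.17.1), which cover counting error only. The scripts were tested on simulated data. Promoters came from RefSeq, GRCm38.p6, and 9 of 10 enzymes matched by symbol, with 10 windows. As a check of the starts, each window was read on past the start. Its last 30 bases occurred in a transcript of the gene for 8 of the 10 windows.

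Members and lists were chosen with earlier results of these data known. Named were the 10 enzymes, in each list up to 4 genes with the largest difference past 1.5-fold, and Aldh1l1, Tyms, Atf4, Myc, Gata6 and its antisense gene; some genes that the rule names are not reported here. Chosen after their values were seen were Folr1, Slc25a32, Sfxn1, Ddit3, Slc7a11, the single markers named, overlapping and neighbouring genes, and the GC box and CCAAT. RefSeq gives 1010001N08Rik as another name of the antisense gene. A protein comparison fixed in the design was not made. Alternatives were other pseudocounts, scalings, filters and size rules, the authors' log2 differences, and quantile normalization, chosen after seeing the data.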

Additional observations from a re-analysis of the deposited data

How the results depend on the processing

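No value changed sign under any alternative run. The median of the mitochondrial enzymes was -1.25 and -1.16 with a pseudocount of 0.1 and 0.5 RPKM, -1.04 with the median of all genes set to 0, -1.28 with each library scaled to 1000000 summed RPKM, -0.91 without a filter, -1.08 above a mean of 5 RPKM and -1.23 by the authors' log2 differences. The serine synthesis median was -0.81 with the median of all genes set to 0, -0.80 after scaling and -0.94 by the authors' log2 differences, where Phgdh is not listed. The cytosolic median was 0.97 with a pseudocount of 0.1 RPKM. Phgdh was at -0.06 with the median of all genes set to 0. At a 1.5-fold rule 5 enzymes were lower and 2 higher. Of 82 values of single enzymes and ratios under alternatives, 24 moved by more than counting error. Setting the median of all genes to 0 lowers the log2 difference of each enzyme by that median, 0.05. A pseudocount of 0.1 RPKM moved Aldh1l2 the most, to -1.74 from -0.91. The cause of the moves under the other alternatives was not tested. The authors' table and the filters hold fewer or more genes, which bears on the counts and medians only. No paired analysis was possible because each group has 1 library, and for the same reason no replicate could be left out. Depth limits Mthfd2l, with 33 and 37 reads at least.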

Other observations

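Other enzymes with a mitochondrial and a cytosolic form, chosen after the values of the folate enzymes were seen, are given beside them. Of 13 such pairs 8 had both genes at a mean of at least 1 RPKM. In 5 of them both genes were above 0, in 2 the mitochondrial gene was below 0 and the cytosolic gene above it, and in 1 the reverse held; over all genes compared 58.0% lay above 0. The mitochondrial minus cytosolic log2 difference ran from -0.86 for the pyrroline-5-carboxylate reductases Pycr1 and Pycrl to 0.57 for the aspartate aminotransferases Got2 and Got1. For the folate enzymes it was -1.74 for Shmt2 and Shmt1, -1.58 for Mthfd1l and Mthfd1 and -2.54 for Mthfd2 and Mthfd1. The folate enzymes were picked with this contrast in view, so nothing is read from their place outside the range of the other pairs. Pycr1, of proline synthesis, was at 8.41 RPKM with the control LNA against 4.87 RPKM with the Gata6-AS LNA, while Pycrl was at 11.9 and 13.6 RPKM. Got2 was at 93.0 and 143 RPKM and Got1 at 64.1 and 66.5 RPKM. The citric acid cycle enzyme Mdh2 was at 71.4 and 91.8 RPKM, and Idh2, an NADP-dependent isocitrate dehydrogenase, at 85.2 and 96.5 RPKM. Other mitochondrial forms had lower values in the depleted library: the malic enzyme Me2 was at 53.4 and 48.5 RPKM and the alanine aminotransferase Gpt2 at 10.7 and 8.76 RPKM. The mitochondrial phosphoenolpyruvate carboxykinase Pck2 was at 22.6 and 9.61 RPKM (-1.15), with the cytosolic Pck1 at or below 0.0190 RPKM in both libraries. This pair (mitochondrial minus cytosolic -1.16) and Aldh1l2 with Aldh1l1 (-1.07) are not in the differences given above. Each has 1 gene with a mean below 1 RPKM.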
